A study of Sus scrofa with 20 samples.

Results

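The genes described are 46 genes of DNA replication and mitosis, listed by name, and their expression was examined in the ileal mucosa of suckling and weaned piglets. A gene was taken as measured where the platform annotation gives a probe set with its symbol and no other. This held for 25 of the 46, out of 6765 genes named in this way on the array. Where a gene had several probe sets, the probe set with the highest mean over the 20 arrays was used. The measured genes covered licensing and the replicative helicase (MCM2, MCM3, MCM4, MCM5 and CDC45, 5 of 9 listed), nucleotide supply (TYMS, RRM1 and RRM2, 3 of 4) and DNA synthesis and untangling (PCNA and TOP2A, 2 of 3). They also covered cyclins, cyclin-dependent kinases and their regulators (CCNA2, CCNB1, CCNB2, CDK2, CDC25B and CKS2, 6 of 10). Of the mitotic kinases, spindle checkpoint and ubiquitination genes, AURKA, AURKB, BIRC5, PLK1, MAD2L1, CDC20 and UBE2C were measured (7 of 11), and of the spindle, cytokinesis and centromere genes KIF20A and NUSAP1 (2 of 8). The other 21, among them MKI67, CDK1, MCM6, MCM7, TK1, BUB1, KIF11, CENPA and TPX2, were not analysed here.

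RNA of each piglet was hybridised to 1 porcine 3′ expression array, and the arrays were assigned to groups by their deposited labels. All piglets were crosses of Landrace, Large white and Duroc. Suckling piglets were killed at 14 days of age (S14D, 3 arrays), 21 days (S21D, 4 arrays), 28 days (S28D, 4 arrays) and 35 days (S35D, 3 arrays). They had only milk of the sow. Piglets weaned at 21 days and then given a commercial diet were killed at 28 days (21W28D, 3 arrays, 7 days after weaning) and at 35 days (21W35D, 3 arrays, 14 days after weaning). The piglets came from few litters, and no source used here ties an array to its litter. The values were taken as log2 units of normalised signal, the scale that gcRMA gives by default, so that a difference of 1 unit is a doubling. The base of the logarithm is not stated in the files, and each fold change rests on it.

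Before a cell divides, the MCM proteins are loaded onto DNA as the core of the replicative helicase, CDC45 activates it, and thymidylate synthase and ribonucleotide reductase supply the nucleotides. Cyclins with their kinases then drive entry into mitosis, the Aurora and Polo kinases act on spindle and chromosomes, and CDC20 starts the destruction of the cyclins. In the ileum, dividing cells lie in the crypts of the epithelium and in the follicles of Peyer's patches, where B cells multiply. SPIB, an ETS family transcription factor of B cells, was measured on the same arrays. In whole mucosa, fewer cells of a type and less RNA per cell cannot be told apart.

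The arrays differed in ways that bear on every result below. Array medians were 5.07 to 5.35 log2 units, and 41.6% of all values lay within 1 unit of the floor of 2.08. MCM4 (highest value 3.79) and KIF20A stayed under 4 log2 units in all arrays, so that their differences are compressed, and the mean over genes given below (the score, each gene centred on its own mean) uses the other 23. The array 21W35D-2 had the lowest correlation with the rest of its group, 0.970. The 10 measured enterocyte and epithelial markers averaged 12.50 to 13.82 log2 units in each array, so that the labelled tissue was found throughout, whereas the erythrocyte score reached 3.54 in S14D-1 and at most 0.91 elsewhere. The labels of S35D and 21W28D are in some doubt. All 3 S35D arrays correlated better with the 21W35D mean than with the S28D mean, and 21W28D-2 and 21W28D-3 better with S28D than with 21W35D, and each of these pairs is also of equal age. The array 21W28D-1 went the other way, with r of 0.989 with S28D and 0.991 with 21W35D. In limma (adjusted p under 0.05), 0% of all probe sets were called from S28D to 21W28D and 6.54% from S28D to S35D. With both labels exchanged these shares became 6.54% and 0%. By its t-test, the paper reports many more genes changed between weaned and suckling piglets soon after weaning than between the oldest suckling groups. The exchanged labels give this order and the deposited labels the reverse. Whether the labels were exchanged was not tested. The calls and medians of comparisons that use either group are therefore also given with both labels exchanged.

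The 23 genes moved together across the arrays. S14D-3, 21W35D-2 and S14D-2 were the 3 lowest arrays for 23 of 23 genes, with S14D-3 the lowest for 22 of them. The score was 0.06, -1.44 and -3.02 in the 3 S14D arrays and 0.56, 0.25, 0.87 and 0.52 in the 4 S21D arrays. It was 0.26, 0.76, 0.76 and 0.87 in S28D and -0.37, 0.06 and 0.01 in S35D. After weaning it was -0.05, 0.75 and 0.81 in 21W28D and -0.01, -1.64 and -0.01 in 21W35D. The spread between piglets of a group was thus small in S21D and S28D and wide in S14D and 21W35D, where 1 or 2 arrays lay far below the others.

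**Figure D1:**
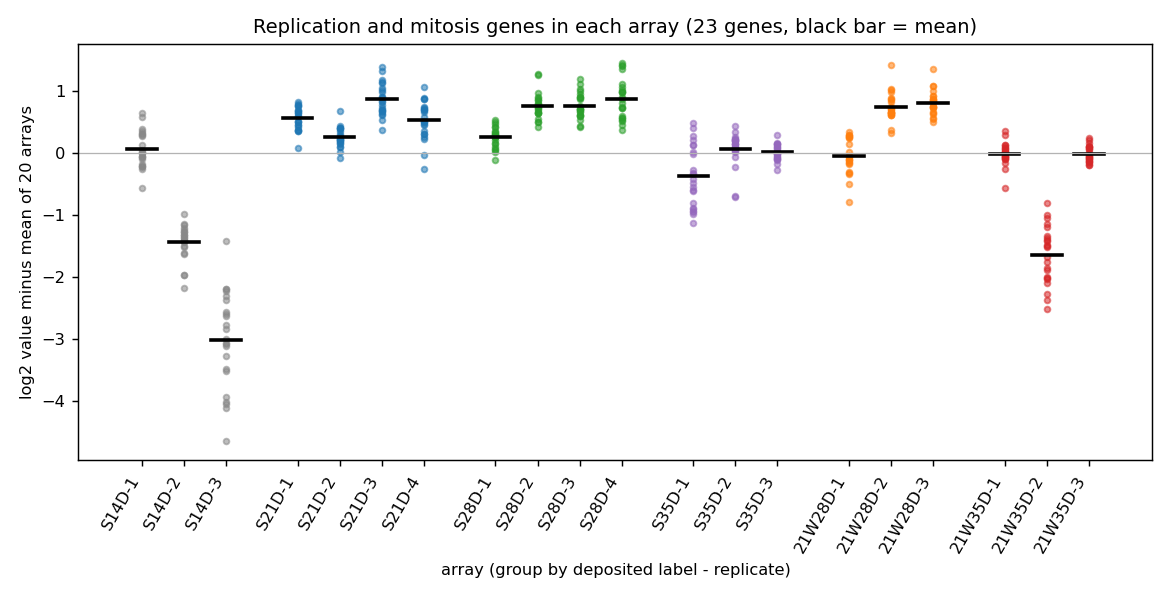
Log2 value of each of 23 genes minus its own mean over 20 arrays (vertical axis), for each array (horizontal axis, colours by labelled group). Each point is a gene and the black bar their mean, which is -3.02 in S14D-3, -1.64 in 21W35D-2 and -1.44 in S14D-2 and between -0.37 and 0.87 in the other arrays.

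From 14 to 21 days of age, 18 of the 25 genes rose and none fell (limma, adjusted p under 0.05 over 23999 probe sets). Over all probe sets 7.27% were called higher in S21D and 14.9% were called in either direction, and among the named genes 10.3% were called higher. The estimate was above 0 for 25 of 25 genes, with a median of 1.95 log2 units against 0 over all probe sets, and ranged from 0.17 for MCM4 to 2.83 for TYMS. At an unadjusted p under 0.05 the count was 24 of 25, against 28.4% of all probe sets in either direction. By the methods' t-test, at its unadjusted threshold and a 2-fold minimum, 12 rose (5.06% of all probe sets higher). Of the 7 that did not pass in limma, MCM2, RRM2, CDK2, PLK1, CDC20 and KIF20A had an adjusted p of 0.0588 to 0.0984, and MCM4 had 0.987. For 16 genes every S21D array lay above every S14D array, which held in the higher direction for 14.1% of all probe sets.

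Among the licensing genes, MCM5, a subunit of the MCM helicase, was at 9.23, 7.34 and 4.90 log2 units in the S14D arrays and at 9.71, 9.16, 10.10 and 9.81 in the S21D arrays. In S28D it was at 9.21, 9.59, 10.15 and 10.35, and in S35D at 7.82, 9.10 and 9.02. In weaned piglets it was at 9.21, 9.83 and 9.79 (21W28D) and 8.96, 6.92 and 8.81 (21W35D). S14D-1 was thus within the range of S21D, and the rise of 2.54 log2 units, or 5.82-fold (SE 0.77, adjusted p = 0.0396), came from the other two S14D arrays. MCM2, another subunit, was at 9.76, 8.09 and 7.21 in S14D and at 10.04, 9.62, 10.28 and 10.10 in S21D. The S28D arrays were at 9.46, 9.90, 10.40 and 10.38 and in S35D at 8.42, 9.62 and 9.41. It was at 9.64, 10.06 and 10.12 in 21W28D and 9.15, 7.14 and 9.32 in 21W35D. Its difference between S14D and S21D, 1.66 log2 units (SE 0.57), did not pass (adjusted p = 0.0655), and S14D-1 lay among the S21D arrays for this gene too. CDC45, which activates the helicase, rose by 1.90 (SE 0.49, adjusted p = 0.0209) and MCM3 by 1.99 (SE 0.63, adjusted p = 0.0460).

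Of the genes of nucleotide supply, TYMS, thymidylate synthase, was at 6.40, 4.78 and 3.44 log2 units in S14D and at 7.65, 7.64, 8.35 and 7.18 in S21D. Its values in S28D were 7.50, 8.22, 7.40 and 7.95 and in S35D 7.44, 6.25 and 7.05. In weaned piglets the values were 6.17, 8.00 and 7.87 (21W28D) and 6.90, 5.91 and 7.17 (21W35D). No S14D array reached the lowest S21D array, and TYMS rose by 2.83 log2 units, or 7.13-fold (SE 0.61, adjusted p = 0.00883), the largest rise and the lowest adjusted p of the 25 genes. RRM1, the large subunit of ribonucleotide reductase, was at 11.68, 10.58 and 9.62 in S14D and at 12.45, 12.20, 12.22 and 12.35 in S21D. In S28D it was at 11.96, 12.61, 12.38 and 12.58, and in S35D at 11.38, 11.63 and 11.67. It was at 12.13, 12.46 and 12.59 in 21W28D and 12.14, 10.36 and 12.10 in 21W35D. The rise of RRM1 from S14D to S21D was 1.68 log2 units (SE 0.43, adjusted p = 0.0209), with no overlap, and the S35D arrays also lay below every S28D array. RRM2, the small subunit, differed by 2.28 (SE 0.78, adjusted p = 0.0639).

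PCNA, the sliding clamp of the DNA polymerases, was at 12.57, 11.48 and 10.06 log2 units in S14D and at 13.41, 13.04, 13.24 and 13.10 in S21D. The S28D arrays were at 13.05, 13.36, 13.30 and 13.09 and in S35D at 12.09, 12.79 and 12.56. It was at 12.48, 13.24 and 13.55 in 21W28D and 12.64, 10.96 and 12.69 in 21W35D. The S14D and S21D arrays did not overlap, and PCNA rose by 1.83 log2 units (SE 0.50, adjusted p = 0.0258). TOP2A, the topoisomerase that untangles replicated DNA, rose by 1.76 (SE 0.49, adjusted p = 0.0285).

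In the group of cyclins and their kinases, CDC25B, a phosphatase that activates these kinases, was at 9.97, 8.22 and 6.25 log2 units in S14D and at 10.88, 10.46, 10.97 and 10.94 in S21D. Its values in S28D were 10.69, 11.16, 11.06 and 11.26 and in S35D 9.26, 10.63 and 10.12. It was at 10.48, 11.21 and 11.27 in 21W28D and 10.55, 8.20 and 10.29 in 21W35D. CDC25B rose by 2.66 log2 units, or 6.34-fold (SE 0.70, adjusted p = 0.0221), with no S14D array as high as the lowest S21D array. CKS2, a small subunit that binds these kinases, was at 12.90, 11.68 and 10.55 in S14D and at 13.29, 13.07, 13.57 and 13.17 in S21D. In S28D it was at 13.07, 13.40, 13.51 and 13.50 and in S35D at 12.92, 13.00 and 12.81. It was at 12.75, 13.57 and 13.41 in 21W28D and 13.00, 12.10 and 12.98 in 21W35D. CKS2 rose by 1.57 log2 units from S14D to S21D (SE 0.40, adjusted p = 0.0202). The mitotic cyclins CCNB1, CCNB2 and CCNA2 rose by 2.02, 1.96 and 1.88 log2 units, and CDK2 differed by 1.77 (SE 0.62, adjusted p = 0.0703).

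Of the mitotic kinases and checkpoint genes, AURKB, the Aurora kinase of the chromosomal passenger complex, was at 8.41, 6.64 and 4.15 log2 units in S14D and at 8.86, 8.42, 9.32 and 9.34 in S21D. The S28D arrays were at 8.56, 9.08, 8.99 and 9.62 and in S35D at 7.65, 8.50 and 8.37. It was at 8.30, 9.15 and 9.15 in 21W28D and 8.36, 6.52 and 8.08 in 21W35D. S14D-1 lay just below the lowest S21D array, and AURKB rose by 2.59 log2 units (SE 0.73, adjusted p = 0.0303). MAD2L1, a component of the spindle checkpoint, was at 11.83, 11.05 and 10.62 in S14D and at 12.41, 12.13, 12.58 and 12.00 in S21D. Its values in S28D were 12.35, 12.46, 12.46 and 12.41 and in S35D 12.25, 12.07 and 12.19. It was at 11.70, 12.41 and 12.59 in 21W28D and 12.05, 11.05 and 12.20 in 21W35D. Its rise of 1.11 log2 units, or 2.16-fold (SE 0.30, adjusted p = 0.0248), was the smallest of the 18 that passed. AURKA, the Aurora kinase of the spindle poles, rose by 2.28, UBE2C, a ubiquitin-conjugating enzyme of mitotic exit, by 2.09 and BIRC5, the survivin of the passenger complex, by 1.95. For PLK1 and CDC20 the differences were 1.99 (adjusted p = 0.0588) and 2.45 (adjusted p = 0.0838).

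NUSAP1, a microtubule-binding protein of the spindle, was at 11.50, 10.33 and 9.19 log2 units in S14D and at 11.94, 11.78, 12.16 and 11.80 in S21D. In S28D it was at 11.81, 12.21, 12.09 and 12.05 and in S35D at 11.15, 11.55 and 11.47. It was at 11.37, 12.10 and 12.30 in 21W28D and 11.39, 10.11 and 11.43 in 21W35D. The S14D and S21D arrays did not overlap, and NUSAP1 rose by 1.58 log2 units (SE 0.43, adjusted p = 0.0257). A second, dimmer NUSAP1 probe set (r = 0.72 with the first) was at 8.93, 7.03 and 4.79 in S14D. It was at 8.89, 7.88, 8.19 and 9.38 in S21D, so that S14D-1 lay within the S21D range there. KIF20A, a kinesin of cytokinesis, was near the floor and differed by 0.39 (SE 0.15, adjusted p = 0.0984).

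The rise rested on 2 of the 3 S14D arrays. S14D-2 and S14D-3 lay below every S21D array for 23 of 23 genes, with a median difference from the S21D mean of -1.95 and -3.52 log2 units, whereas S14D-1 lay below for 15 and within the S21D range for 8, with a median difference of -0.47. Without S14D-3, 0 of the 25 genes passed in limma, while 1.40% of all probe sets were still called higher, and 16 of the genes had an unadjusted p under 0.05. Without S14D-2 only TYMS passed (1.90%), and without S14D-1, the array with the high erythrocyte score, 23 passed (10.9%). The array left out in S21D also moved the count, to 5 without S21D-1 (3.59%) and to RRM1 and TYMS without S21D-3 (2.73%). The median was between 1.17 and 2.66 log2 units whichever array was left out. Without S14D-3 and 21W35D-2 together, a setting chosen after seeing the data, CCNB2, CCNB1, AURKA, CDC25B, CDC45, RRM1, TYMS and PCNA passed, 8 of 25 (3.51% of all probe sets called higher). With only the S14D and S21D arrays in the limma fit 0 passed, with 4.18% of all probe sets called higher, and 17 had an unadjusted p under 0.05. TYMS passed in 19 of the 20 fits that each left out 1 array, the exception being the fit without S14D-3.

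Related genes outside the list mostly took the same direction. Of 24 other measured replication factors 10 rose and none fell from S14D to S21D, with a median of 1.19 log2 units. Over all probe sets 7.27% were called higher. The largest rises among those that passed were 2.41 for ORC1 and 1.60 for ORC6, subunits of the origin recognition complex, 1.78 for DNMT1, which copies DNA methylation, and 1.66 for RFC3, a subunit of the clamp loader. Of 28 other mitosis genes 20 rose and none fell (median 1.53), and the largest of these were CDCA3 with 2.32, HMMR with 2.12, DLGAP5 with 2.04 and TACC3 with 2.02, all of which bind or regulate the mitotic apparatus. The estimate was above 0 for 26 of the 28 and lowest for MAD2L2, at -0.38. Without S14D-3 the counts of the 2 lists called higher were 0 and 2 (1.40% of all probe sets). Without S14D-1 they were 18 and 23 (10.9%). The 13 measured genes of cell cycle inhibition and arrest had a median of 0. Among them CDKN2D, an inhibitor of CDK4 and CDK6, rose by 1.02 (SE 0.26, adjusted p = 0.0205) and CDKN1A, the inhibitor p21, fell by 0.61 (SE 0.19, adjusted p = 0.0406). Of the G1 cyclins and kinases only CCND2, MYC and E2F3 were measured, and none passed (0 at an unadjusted p under 0.05).

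Markers of other cell types moved between the same groups. Of 5 measured B cell markers 3 passed: SPIB rose by 2.38 log2 units, BLNK by 1.14 and FCGR2B by 4.42. CD79B and CD40 had estimates above 0 and did not pass. Of 8 T cell markers 4 rose, 1 of 4 plasma cell markers rose and 1 of 7 smooth muscle markers fell. Over all probe sets 7.27% were called higher and 14.9% in either direction. Of the 4 measured crypt markers ASCL2 fell by 2.39 and PROM1 fell by 1.21. OLFM4 and SOX9 did not pass, and SOX9 stayed under 4 log2 units in all arrays. None of the 10 enterocyte markers passed (4 at an unadjusted p under 0.05), nor any of the 4 erythrocyte markers (4 at an unadjusted p under 0.05, lowest adjusted p = 0.0648). The part of these cell types in the rise was not tested by these values. LMO2, the only germinal centre marker measured, differed by 2.33 (adjusted p = 0.165).

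From 21 to 28 days of suckling the genes did not change detectably: 0 of 25 passed in limma, with 1 of 23999 probe sets (0.00417%) called and a median of 0.11 log2 units, and 0 of 25 had an unadjusted p under 0.05 (1.62% of all probe sets). From 28 to 35 days 0 of 25 passed again, against 6.54% of all probe sets, and 0 of 25 had an unadjusted p under 0.05, against 23.3%. The estimates were below 0 for 25 of 25, with a median of -0.79 and a lowest adjusted p of 0.249, for CDC45. The genes moved together across arrays (median r of 0.96 between 23 of them). The shared sign and the count without overlap are therefore not separate observations for each gene. For 15 genes every S35D array lay below every S28D array, which held in the lower direction for 13.0% of all probe sets. With the labels of the 2 groups exchanged this held for 0 of 25. In the fit without S14D-3 and 21W35D-2, where 7.80% of probe sets were called lower, RRM1 passed and fell by 0.82 log2 units. With SPIB as a covariate the median was 0.38 and 0 of 25 passed (0.379% called, 3 at an unadjusted p under 0.05). Over the 4 suckling ages together, 15 of 25 genes varied (F test, 20.6% of all probe sets called), and 10 with S35D and 21W28D exchanged (11.4%).

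**Figure D2:**
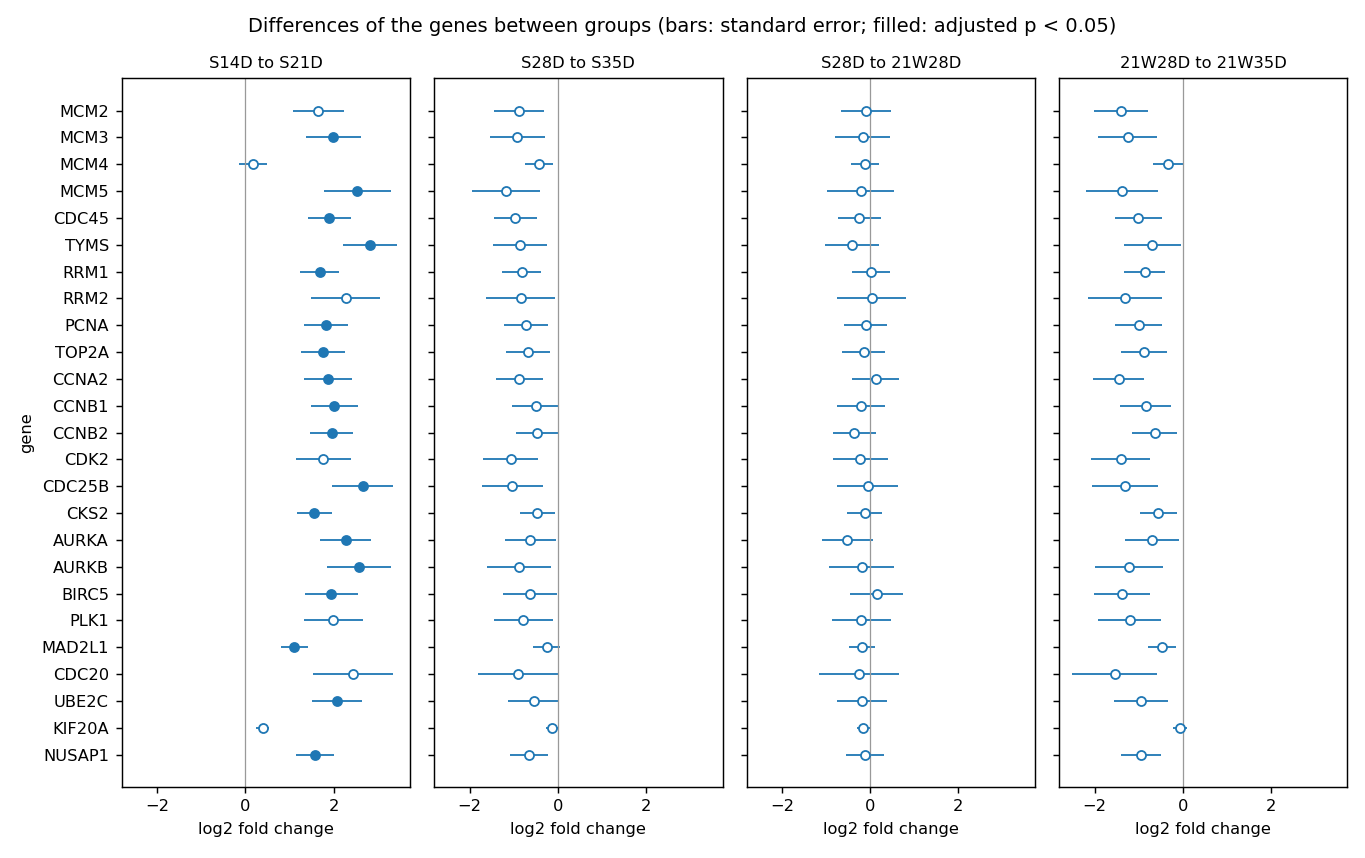
Log2 fold change of each of the 25 genes (vertical axis) in 4 comparisons, with bars of 1 standard error of the limma fit and filled points where the adjusted p was under 0.05. From S14D to S21D 18 points are filled, and in the other comparisons none, with 25 of 25 points below 0 from S28D to S35D.

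Weaning gave no call among the genes under either set of labels, and the values in this paragraph otherwise use the deposited labels. With S35D and 21W28D exchanged, 6.54% of all probe sets were called from S28D to 21W28D, and the median of the genes was -0.79. The lack of calls by the deposited labels therefore does not show that weaning left the genes unchanged. At 28 days 0 of 25 differed between S28D and 21W28D in limma (0% of all probe sets called), with a median of -0.17 log2 units and 0 at an unadjusted p under 0.05 (1.88%). From S21D to 21W28D the median was -0.05 (0 of 25, 0% called, and 0 of 25 unadjusted against 2.53%). At 35 days the median from S35D to 21W35D was -0.44 (0 of 25, 0.0458% called, and 0 of 25 unadjusted against 5.86%), and 0.06 without 21W35D-2. From 21W28D to 21W35D it was -0.99, and -0.51 without 21W35D-2, with 0 of 25 passing (0.0792% called), 2 at an unadjusted p under 0.05 (MCM2 and CCNA2, against 8.86% of probe sets), and 8 genes whose arrays did not overlap, against 5.10% of all probe sets. From S21D to 21W35D it was -1.05, with 0 of 25 passing (0.296% called), 6 at an unadjusted p under 0.05 (11.2%) and 19 without overlap (6.52%), although without 21W35D-2 the median was -0.56. No gene passed the test for another effect of weaning at 35 than at 28 days (interaction, 0% called). Nor did any pass the test for variation over the groups from 21 days on (F test, 2.22% called). Since the interaction test called no probe set at all, it does not show that the effects were equal. These comparisons share groups and are not independent of each other.

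When S35D and 21W28D exchanged their labels, still 0 of 25 passed in each of these comparisons, with 6.54% of all probe sets called from S28D to 21W28D, 3.57% from S21D to 21W28D, 0.0792% from S35D to 21W35D, 0.0458% from 21W28D to 21W35D and 0% from S28D to S35D. The median from S28D to S35D became -0.17 and that from S28D to 21W28D -0.79 log2 units, while from S21D to 21W28D it became -0.63. The median from S35D to 21W35D became -0.99 and that from 21W28D to 21W35D -0.44. After the exchange, the genes whose arrays did not overlap numbered 15 from S28D to 21W28D, against 13.0% of all probe sets in the lower direction. They numbered 8 from S35D to 21W35D, against 5.10%. From 21W28D to 21W35D the count was 1. No share over all probe sets is given for it, so that it is not read as a result about the genes. Any value given above for S28D to S35D, that of RRM1 included, then belongs to S28D to 21W28D, since the exchange moves the same arrays. The S14D to S21D comparison uses neither group, and 18 of 25 passed under both sets of labels.

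By the deposited labels CDKN1A, whose p21 protein halts the cycle, ran the other way at 35 days. Its values were 8.99, 9.10, 9.17 and 9.11 log2 units in S28D and 10.08, 10.05 and 10.38 in S35D, against 9.21, 9.11 and 8.76 in 21W28D and 9.88, 10.42 and 10.41 in 21W35D. It rose by 1.08 from S28D to S35D (SE 0.19, adjusted p = 0.0101) and by 1.21 from 21W28D to 21W35D (SE 0.20, adjusted p = 0.0354). With the 2 labels exchanged, the difference from S28D to S35D was -0.06 and that from S28D to 21W28D was 1.08. That from S35D to 21W35D was then 1.21 (limma, adjusted p = 0.0354), and that from 21W28D to 21W35D was 0.07 (adjusted p = 1). By the exchanged labels CDKN1A was higher in weaned than in suckling arrays at both ages. Of the inhibitors RBL2, a relative of the retinoblastoma protein, fell by 0.58 from S28D to S35D (adjusted p = 0.0393), and of the other lists ORC4 fell by 0.61 and CDC25C, a phosphatase that activates mitotic kinases, fell by 1.24. None of the 3 passed from S28D to S35D with exchanged labels (limma, adjusted p = 1 for each), and the same differences then stood between S28D and 21W28D.

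The level of the genes followed SPIB from array to array. SPIB was at 11.04, 9.65 and 8.02 log2 units in S14D and 11.88, 11.64, 12.12 and 12.17 in S21D. It was at 11.14, 12.14, 11.89 and 12.18 in S28D and at 9.06, 11.03 and 10.63 in S35D. In weaned piglets it was at 11.26, 12.16 and 11.70 (21W28D) and 11.43, 8.92 and 11.00 (21W35D). Its lowest arrays, S14D-3, 21W35D-2, S35D-1 and S14D-2, thus include the 3 that were lowest for the replication and mitosis genes.

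Of the 25 genes 24 correlated with SPIB over the 20 arrays (Pearson, permutation test with 100000 draws, adjusted over 23999 probe sets), against 18.0% of all probe sets and 25.0% of named genes called with a positive correlation. The median r was 0.92 against 0.00 over all probe sets, from 0.36 for MCM4 (adjusted p = 0.200) and 0.56 for KIF20A to 0.97 for CDC45. By Spearman's rho all 25 passed (median 0.87, 18.9% of probe sets). With dim probe sets left out, 23 of the 23 genes kept passed by Pearson r. Of the 13718 probe sets kept, 32.5% were called with a positive correlation, a larger share than the 18.0% with dim ones included. The median r was then 0.92 for the genes and 0.02 for the probe sets kept. The other shares of probe sets given for SPIB include dim ones. CDC45 had r = 0.97 and rho = 0.92 (permutation p = 1e-05, the smallest the draws can give), MCM5 r = 0.95 and rho = 0.92, AURKB r = 0.93 and rho = 0.93, and TYMS r = 0.79 and rho = 0.76. The reference gene ACTB had r = 0.30 (adjusted p = 0.367). SPIB itself rose from S14D to S21D, so that the pooled correlation holds the difference between groups.

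Within groups the relation was close to that over all arrays. Taking each array as its deviation from the group mean, with permutation within groups, 19 of 25 passed with a median r of 0.90 (10.7% of probe sets), and r stayed at 0.97 for CDC45 but was 0.60 for TYMS, 0.48 for CCNA2 and 0.14 for MCM4. These deviations are widest in S14D and 21W35D. Without S14D-3 and 21W35D-2, the arrays farthest from the median of SPIB, 22 of 25 passed with a median r of 0.83 (15.2%). Without the S14D arrays 23 passed with a median of 0.87 (16.5%). Among the 16 arrays with SPIB of at least 10 log2 units, a setting chosen after seeing the data, 22 passed with a median of 0.79 (11.7%). Leaving out each array in turn gave 23 or 24 of 25. An exchange of the labels of S35D and 21W28D leaves these values as they are, since both groups keep their arrays.

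**Figure D3:**
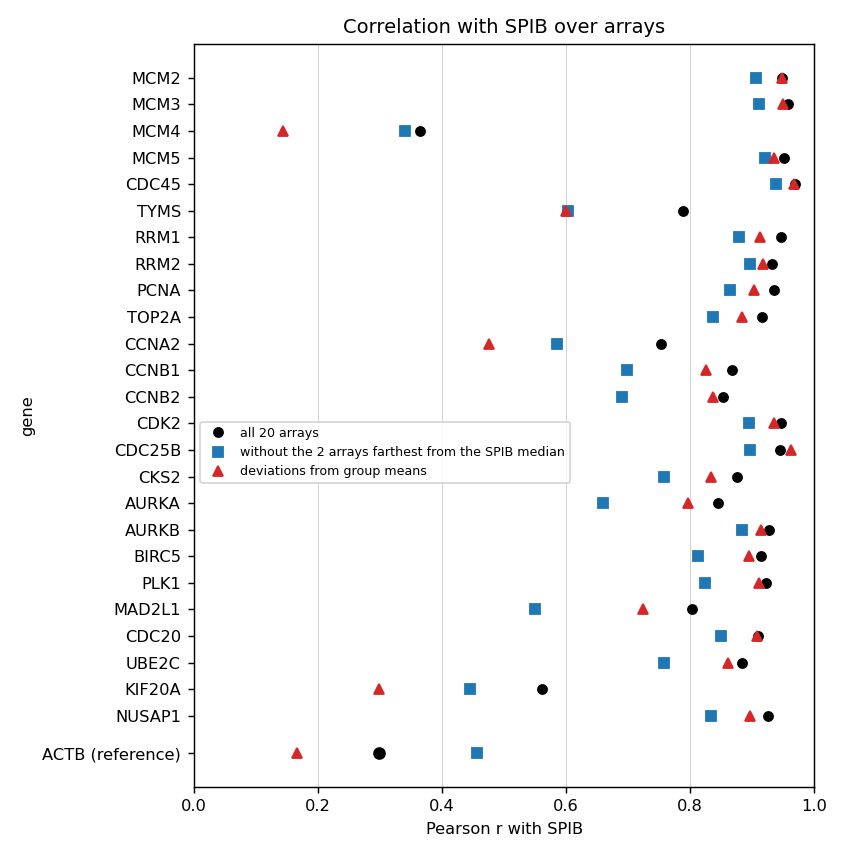
Pearson r of each gene with SPIB over 20 arrays (black circles), without the 2 arrays farthest from the SPIB median (blue squares) and for deviations from group means (red triangles). Over 20 arrays all genes but MCM4, KIF20A, CCNA2 and TYMS lie above 0.8, TYMS and CCNA2 are at 0.60 and 0.48 within groups, and the reference gene ACTB is at 0.30 over 20 arrays.

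The genes differed in how steeply they followed SPIB. Fitted slopes in log2 units per log2 unit of SPIB were 1.06 for CDC20, 1.02 for MCM5, 1.00 for CDC25B and 0.96 for AURKB, against 0.52 for CKS2 and 0.36 for MAD2L1. With SPIB as a covariate in the limma fit, a setting chosen after seeing the data, the median from S14D to S21D was 0.26 log2 units and 0 of 25 passed (0.421% of all probe sets called higher, 1 gene at an unadjusted p under 0.05). The estimate for TYMS was 1.56 (adjusted p = 0.405) and that for MCM2 was -0.23. SPIB differed between the groups, so that a change with age and a change with SPIB cannot be told apart in this fit.

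One array departed from the relation in the same direction for each gene. S35D-1 had SPIB at 9.06, near 21W35D-2 at 8.92, but lay above the line fitted without it for 23 of 23 genes, and farther above than any other array for 23 of 23. TYMS was at 7.44 in S35D-1 against 4.92 on the line, a distance of 2.52 log2 units, AURKA at 9.18 against 6.87 (2.30) and CCNA2 and CDC20 1.88 above it. The distance was 1.13 for MCM5 and smallest for MCM3 (0.87), CDC45 (0.70) and MCM2 (0.64). CCNB1 lay 1.85 above the line, while the mitotic genes MAD2L1 (1.14) and NUSAP1 (1.06) were at the level of MCM5. These are values of a single array with no test. In the same array CD79B, a B cell receptor component, was at 6.88 against a mean of 10.39 over the arrays, and the other B cell markers were also below their means. Without S35D-1 the median r with SPIB was 0.96.

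**Figure D4:**
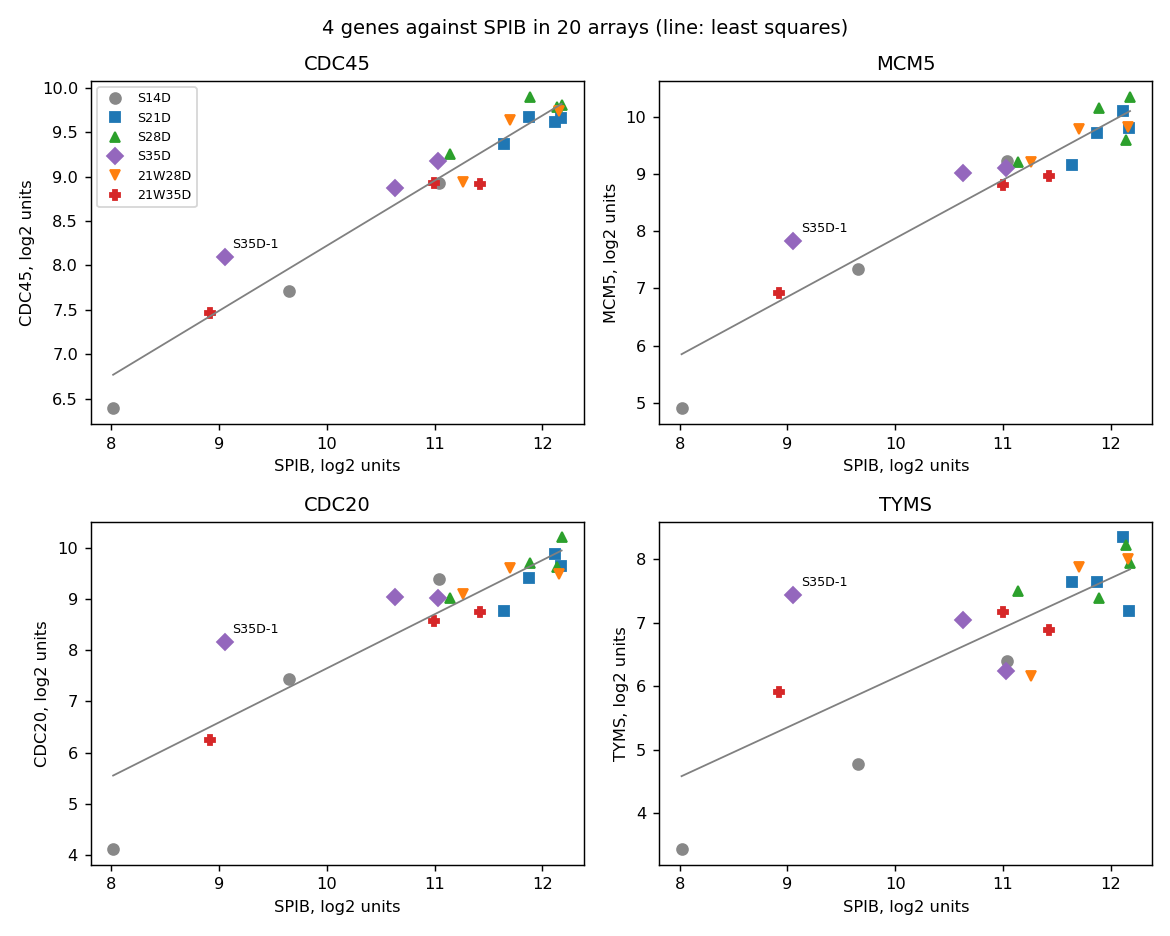
Log2 values of CDC45, MCM5, CDC20 and TYMS (vertical axes) against SPIB (horizontal axes) in 20 arrays, with a least squares line and symbols by labelled group. S35D-1 lies above the line in each panel, by 0.70 log2 units for CDC45 and 2.52 for TYMS when the line is fitted without it.

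Among themselves the 23 genes were correlated over the 20 arrays with a median r of 0.96 over 253 pairs, from 0.78 for RRM2 with CCNA2 to 0.99 for TOP2A with NUSAP1, and 208 pairs were above 0.9. The score of the genes correlated with the mean of 5 B cell markers at r = 0.93, and at 0.92 when SPIB was left out of them. It correlated at 0.91 with LMO2 and 0.52 with the T cell markers, at -0.72 with the crypt markers and at -0.68 with the enterocyte markers. The erythrocyte markers gave 0.02 and the cell cycle inhibitors 0.16, against 0.98 for the other replication factors and 0.99 for the other mitosis genes. Taken as deviations from group means, r was 0.90 for the B cell markers, 0.75 for the T cell markers, -0.46 for the crypt markers, -0.62 for the enterocyte markers and 0.80 for the erythrocyte markers. The erythrocyte score was 3.54, 0.91 and -0.49 in S14D-1, S14D-2 and S14D-3, in the order of the scores of the genes in these arrays. These are descriptions over arrays that share the same 3 low arrays, and they carry no test. Without S14D-3 and 21W35D-2 the values were 0.86 for the B cell markers and -0.76 for the crypt markers. Only 5 of 18 listed B cell markers and 4 of 10 crypt markers were measured, so that the epithelial share of these cells is poorly covered.

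**Figure D5:**
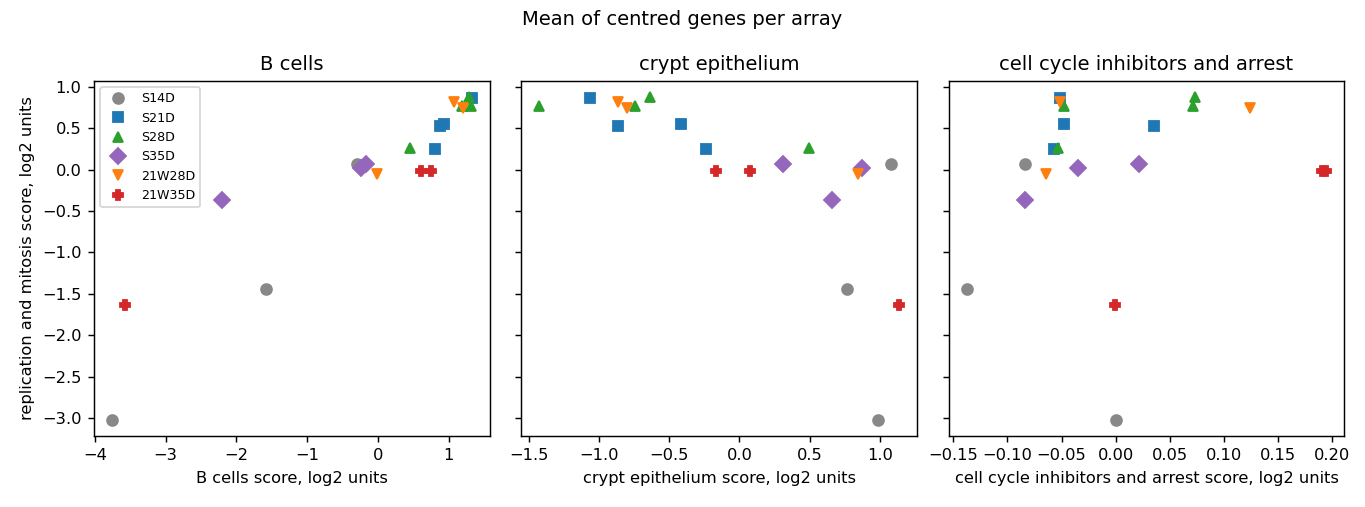
Score of the 23 genes in each of 20 arrays (vertical axis, log2 units) against the scores of the B cell markers, the crypt markers and the cell cycle inhibitors (horizontal axes, log2 units). The points rise with the B cell score (r = 0.93), fall with the crypt score (r = -0.72) and show no clear trend with the inhibitors (r = 0.16).

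Of 4608 other named genes with a mean of at least 6 log2 units, the 10 whose values over the 20 arrays were most like the score had Pearson r of 0.987 to 0.995 with it. They were DLGAP5, SAA2, FANCD2, TACC3, CENPF, ORC1, EZH2, PCLAF, CDCA3 and NUF2. Most of these are known from replication, DNA repair or the spindle. DLGAP5 ranged from 8.16 to 12.07 and FANCD2, a repair protein of the Fanconi anaemia pathway, from 4.73 to 9.76 log2 units. EZH2, a histone methyltransferase, ranged from 6.22 to 10.77. SAA2 is the name in the platform annotation of a probe set with values from 8.52 to 12.07, and whether that name is right was not tested. S14D-3 was the lowest array for each of the 10.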

How the data were processed

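Expression was measured in ileal mucosa of 20 piglets on the Affymetrix Porcine Genome Array. The authors normalized the arrays with gcRMA (GCOS 1.2 and GCRMA are the names in the submitters' processing notes), and the deposited values were taken as log2 signals per probe set. No source used here gives the litter or scan day of an array. Of 24123 probe sets 124 controls were left out, and 23999 were tested. Of these 10069 had 1 gene symbol, 198 several and 13732 none. Of those with 1 symbol 9961 matched a RefSeq gene table. Raw intensities were not used, and the number of arrays limits the precision. No promoter or protein sequence was analysed here.

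limma 3.58.1 in R 4.3.3 (lmFit and eBayes) was fitted to all 20 arrays with 1 mean for each of 6 groups, with Benjamini-Hochberg adjustment over all probe sets. A call is an adjusted p under 0.05 with no fold minimum. Correlations with SPIB used 100000 permutations (10000 for alternatives) in Python 3.11.15 with numpy 2.4.6. The fits were tested on simulated data. Each array is 1 piglet. The replicate numbers were not taken as pairs, since of 46 same-number pairs of arrays 18 had deviations correlated above 0.1 and 19 below -0.1, with a median of 0.04.

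The genes, the other lists and the markers were chosen with earlier results of these data known. Values in every array are given for the gene of each role with the highest mean and the gene with the largest called change from S14D to S21D. Of the other lists up to 4 genes called in a comparison are named, with the largest changes, and of the markers SPIB and a few others. The other B cell, T cell and crypt markers, CD79B, CCNB1, PLK1 and similar genes without full values were named after their values were seen. The 10 most similar genes were taken by Pearson r with the score. Alternatives were a filter on dim probe sets, 1 probe set or the mean of the probe sets of a gene, an intensity trend, median centring, repeated quantile normalization, the replicate block, only the groups compared, the methods' t-test, each array left out, a 2-fold minimum and exchanged labels. SPIB as a covariate, a fit without S14D-3 and 21W35D-2 and a restriction to arrays with high SPIB were added after seeing the data.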

Additional observations from a re-analysis of the deposited data

Results flagged for a closer look

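In groups of 4 arrays, 1 array stood apart from the other 3 for 4 genes, out of 52 gene and group pairs tested. For independent pairs chance gives about 1 in 20. The pairs are not independent, since the genes move together, so the count cannot be set against that rate. MCM4 was highest in S28D-2, at 3.79 log2 units, a value under the limit used for dim signal. CDC45 was lowest in S21D-2, at 9.37. In S28D-1, CCNB2 was lowest at 10.65 and CDK2 was lowest at 8.96. No explanation of these values was tested.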

How the results depend on the processing

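The count of 18 genes called from S14D to S21D was the least stable value. It was 3 with the replicate block (CCNB2, MAD2L1 and TYMS), 0 with only the compared groups in the fit, 0 with SPIB as a covariate, 8 without S14D-3 and 21W35D-2, and 12 by the methods' t-test at its threshold but 0 after Benjamini-Hochberg adjustment, and leaving out each array gave 0 to 23. Dim probe sets left out gave 23 of the 23 genes kept, and 1 probe set per gene or median centring gave 21 of 25. The dim filter and the choice of 1 probe set per gene also adjust over fewer probe sets. The share of all probe sets called from S14D to S21D is not given for these settings or for the replicate block. A gain or loss of the genes thus cannot be told from a general one there. The 15 genes varying over suckling ages became 1 with the replicate block, 1 with SPIB as a covariate, 9 without S14D-3 and 21W35D-2, 10 with exchanged labels and 0 to 23 over arrays left out. From S28D to S35D the count of 0 became 1 without S14D-3 and 21W35D-2 and 2 by the methods' t-test (CDC25B and CDK2), and from S21D to 21W35D it became 1 by the methods' t-test (CDC45). The estimate of MCM2 from S14D to S21D turned to -0.23 with SPIB as a covariate. The cause of these shifts was not tested. The count of genes correlated with SPIB stayed at 22 to 25 of the 25 measured in the alternatives over all genes, apart from 19 within groups. In the replicate block fit no other count of the 25 genes called at an adjusted p moved beyond 1.5 times. The count of other replication factors called from S14D to S21D fell to 3, that of other mitosis genes to 5 and that of B cell markers to 0, genes at an unadjusted p under 0.05 numbered 1 each from S21D to 21W35D and from 21W28D to 21W35D, and 23 genes correlated with SPIB. For the numbers themselves, the best-correlated array had the same number for 6 of 20 arrays, so that the numbers were not read as pairs.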
